A study of Mus musculus with 10 samples.

Results

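Tetraspanins were examined in CNS-associated macrophages, the macrophages of the meninges and perivascular spaces of the brain, across 3 genotypes of the Mrc1-CreERT2 mouse line. The genes were Cd9, Cd81, Cd63, Cd82, Cd37, Cd53, Cd151 and Tspan4, 8 of the 53546 gene symbols in the deposited counts, and all 8 had enough counts to be tested among 14023 genes. Cd9 was chosen by its counts, which were lower in homozygous than in heterozygous libraries, and the other 7 were taken as its relatives. Those Cd9 values are therefore given as a description, with no test, and the same holds for Cd9 in the comparisons that reuse the same homozygous or heterozygous libraries. Bulk RNA was sequenced from 500 pg of total RNA of sorted cells, each library coming from a single mouse. The homozygous mice (Mrc1-CreERT2/Mrc1-CreERT2, labelled Cre-Cre, n = 4) carry the allele on both chromosomes, the heterozygous mice (Mrc1-CreERT2/wt, labelled Cre-pos, n = 3, numbered 1, 2 and 4) on a single chromosome, and the wild-type mice (WT, n = 3) on neither. All were C57BL/6N mice of 6 to 8 weeks that received no treatment. CreERT2 is a recombinase that becomes active once a tamoxifen-type ligand binds it, and Mrc1, whose locus names the allele, encodes the mannose receptor CD206. No source used here gives the sort gate.

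Tetraspanins are small proteins that cross the membrane repeatedly and gather integrins, adhesion molecules, proteases and signalling receptors into shared membrane domains. Family members differ in where they sit: CD9, CD81, CD82 and CD151 act mainly at the cell surface, CD63 mainly in late endosomes, lysosomes and exosomes, and CD37 and CD53 mainly in cells of blood origin. In macrophages CD9 and CD81 are known to restrain cell fusion, and both transcripts are also found in microglia, the macrophages of the brain tissue itself.

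Libraries held 22986972 to 36575446 counts. Mrc1, which checks the genotype labels, was at 3065 to 3748 CPM (counts per 1000000 counts of a library) in WT, 1985 to 2286 CPM in Cre-pos and 441 to 542 CPM in Cre-Cre libraries, with no overlap. All 14 markers listed for CNS-associated macrophages were detected in testable amounts, and their summed level was 20869 to 21268 CPM in Cre-Cre, 17602 to 20414 CPM in Cre-pos and 18258 to 19943 CPM in WT libraries, so that all Cre-Cre libraries stood above all others. Mrc1 is among the 14 and in their sum. All 10 listed microglia markers were also present, at a sum of 4334 to 13284 CPM. The neutrophil, mast cell, endothelial, mural, fibroblast and neuron lists each summed to at most 28.2 CPM in every library. Erythroid markers varied widely between libraries, at 1.45 to 911 CPM in Cre-Cre (highest in replicates 3 and 2), 0.0924 to 127 CPM in Cre-pos and 2.94 to 192 CPM in WT libraries. Choroid plexus and ependymal markers summed to 0 to 66.7, 0.0628 to 108 and 0 to 364 CPM in that order of genotypes, dendritic cell markers to 77.6 to 227, 142 to 204 and 121 to 155 CPM, T and NK cell markers to 10.8 to 23.4, 32.6 to 43.9 and 0.979 to 86.3 CPM, and astrocyte markers to 43.9 to 87.0, 40.3 to 60.8 and 13.2 to 93.6 CPM.

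The stretches before the start of Cd9, Cd81 and Cd53 are shown because Cd9 and Cd81 had the largest differences between genotypes, whereas Cd53 was the most abundant member for its length. They are RefSeq promoter windows on GRCm38.p6, 250 bases long and ending at the base before the annotated gene start. Each is written 5′ to 3′ on the gene's own strand. Capitals mark each copy of GGGCGG, the core of the GC box bound by Sp1-type factors, searched on both strands, so that a copy on the other strand reads CCGCCC. Cd9 lies at chr6:125494761-125495010 on the minus strand, Cd81 at chr7:143052500-143052749 on the plus strand and Cd53 at chr3:106790150-106790399 on the minus strand. Coordinates are those of the RefSeq table, since no source used here names the build behind the counts.
Cd9: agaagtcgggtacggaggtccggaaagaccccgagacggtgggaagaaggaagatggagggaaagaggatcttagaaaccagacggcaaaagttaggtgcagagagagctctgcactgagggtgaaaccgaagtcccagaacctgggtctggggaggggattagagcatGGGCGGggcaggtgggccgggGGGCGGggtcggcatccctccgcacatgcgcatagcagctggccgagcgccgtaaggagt
Cd81: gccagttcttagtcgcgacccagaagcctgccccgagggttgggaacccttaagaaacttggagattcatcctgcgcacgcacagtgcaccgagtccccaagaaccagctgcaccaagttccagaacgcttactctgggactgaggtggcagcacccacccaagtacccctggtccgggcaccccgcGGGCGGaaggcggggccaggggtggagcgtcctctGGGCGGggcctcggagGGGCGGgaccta
Cd53: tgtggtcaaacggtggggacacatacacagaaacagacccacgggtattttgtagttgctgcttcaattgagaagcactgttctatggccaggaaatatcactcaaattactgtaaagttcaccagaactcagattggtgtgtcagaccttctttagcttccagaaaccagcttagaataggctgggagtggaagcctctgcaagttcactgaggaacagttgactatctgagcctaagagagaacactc

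The Cd9 window held 2 copies of GGGCGG, the Cd81 window 3 and the Cd53 window 0. Over all 32851 promoter windows of this length, 32.7% held at least 1 copy, 16.7% at least 2 and 8.47% at least 3. All 8 members matched a symbol in the table. Cd37 had 1 copy and Cd63 had 0, and Cd82, Cd151 and Tspan4 have 4, 2 and 2 windows each, with at most 1, 2 and 2 copies. GAGGAAG, which resembles the core of sites for the myeloid factor PU.1, occurred in none of the printed windows, in those of Cd63 and Cd37, in 1 of the 4 of Cd82, and in 10.6% of all windows. Cd9 was thus not alone with 2 copies, which Cd151 and Tspan4 also had in a window.

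Cd9, a surface tetraspanin that associates with integrins and with the immunoglobulin-family proteins IGSF8 and PTGFRN, was low in every homozygous mouse. Its level was 16.1, 36.4, 24.8 and 31.2 CPM in Cre-Cre replicates 1 to 4, 82.7, 102 and 130 CPM in Cre-pos replicates 1, 2 and 4, and 108, 94.6 and 213 CPM in WT replicates 1 to 3. All 4 Cre-Cre libraries lay below all 6 others, Cre-pos and WT libraries overlapped, and WT replicate 3 stood highest. The means were 27.1 ± 8.75 CPM (SD, n = 4), 105 ± 24.0 CPM (SD, n = 3) and 139 ± 64.6 CPM (SD, n = 3). Cre-Cre libraries thus averaged 25.9% of the Cre-pos and 19.6% of the WT level. The depth behind these values was 444 to 1337 Cd9 counts in a Cre-Cre library and at least 2634 in any other. The fitted log2 fold change was -1.95 (SE 0.34) for Cre-Cre against Cre-pos, the contrast that chose the gene, and -2.35 (SE 0.35) for Cre-Cre against WT. Without WT replicate 3 the latter was -1.90. For Cre-pos against WT it was -0.40 (SE 0.37), and 0.05 without WT replicate 3. In bulk RNA, fewer cells of a type and less RNA per cell cannot be told apart.

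**Figure D1:**
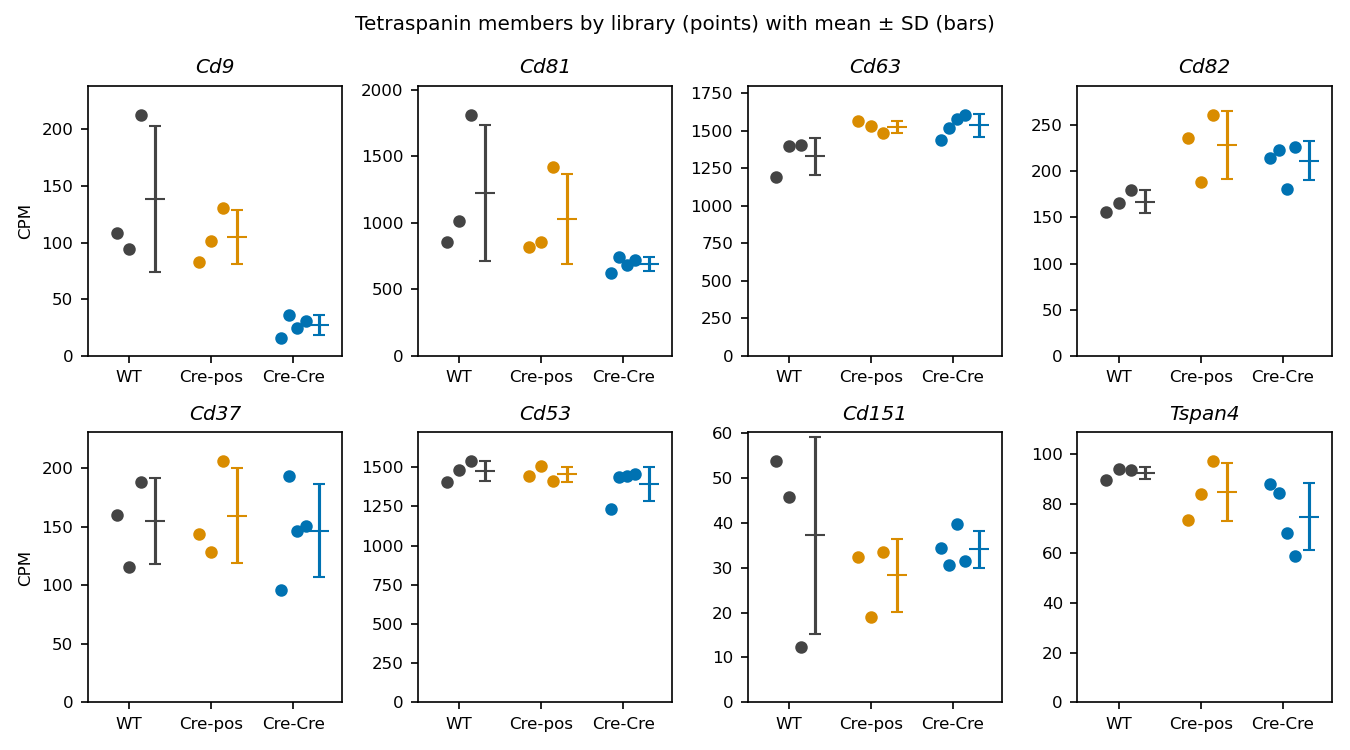
Level of each tetraspanin in CPM (vertical axes, starting at 0) in WT (n = 3), Cre-pos (n = 3) and Cre-Cre (n = 4) libraries, a point per library, with the mean and SD beside the points. Cd9 lies between 16.1 and 36.4 CPM in Cre-Cre and at 82.7 CPM or more in all other libraries, Cd81 shows a smaller gap, and Cd37, Cd53 and Cd151 overlap between genotypes.

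Cd81, the closest match to Cd9 among the members across the libraries, associates with integrins and with receptors of B cells. It was at 620, 740, 687 and 720 CPM in Cre-Cre replicates 1 to 4. In Cre-pos replicates 1, 2 and 4 it was at 817, 856 and 1422 CPM, and in WT replicates 1 to 3 at 855, 1012 and 1812 CPM. Every Cre-Cre library lay below every other library, as for Cd9, and the same pair of libraries, WT replicate 3 and Cre-pos replicate 4, stood highest for both genes. Their titles carry the letter f, as do those of Cre-Cre replicates 3 and 4, against m in the other 6, and the labels do not explain the letters; with the letter in the fit, the log2 fold change of Cre-Cre against WT was -2.35 for Cd9 and -0.83 for Cd81. Among all 14023 genes, 0.813% had all Cre-Cre libraries below all others. The mean was 692 ± 52.6 CPM (SD, n = 4) in Cre-Cre, 1032 ± 339 CPM (SD, n = 3) in Cre-pos and 1226 ± 514 CPM (SD, n = 3) in WT libraries.

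The Cd81 difference did not pass the test over all genes. Against WT the log2 fold change was -0.83 (SE 0.26, 95% interval -1.40 to -0.25). The edgeR quasi-likelihood p was 0.00968 before adjustment and 0.542 after it. The log2 fold change was -0.43 without WT replicate 3, and DESeq2 called Cd81 with all libraries (adjusted p = 0.0307), in a comparison where DESeq2 called 2.19% of genes and edgeR 0.0642%. Against Cre-pos the log2 fold change was -0.58 (SE 0.26), and -0.26 without Cre-pos replicate 4. Cre-pos against WT gave -0.25 (SE 0.28), and 0.15 without WT replicate 3.

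The libraries highest for Cd9 and Cd81 were also the highest for microglia markers. Tmem119, a microglial surface protein, was at 86.2, 130, 127 and 100 CPM in Cre-Cre replicates 1 to 4, at 294, 336 and 512 CPM in Cre-pos replicates 1, 2 and 4, and at 258, 347 and 824 CPM in WT replicates 1 to 3. The sum of the 10 microglia markers was 4334 to 5923 CPM in Cre-Cre, 7251 to 9577 CPM in Cre-pos and 6370 to 13284 CPM in WT libraries. None of the 10 was at 0 in any genotype. For Cre-Cre against WT all 10 were fitted below 0, as were 48.9% of all genes, with a median log2 fold change of -1.30 beside 0.02 over all genes. Of the 10, 0 passed edgeR's test, where 0.0642% of all genes passed, and 6 had an unadjusted p under 0.05 on the lower side, as did 2.96% of all genes. DESeq2 called 4, among them Tmem119, Sall1 and Olfml3, where it called 2.19% of genes. The log2 fold change was -2.10 (SE 0.37) for Tmem119, -0.44 (SE 0.29) for P2ry12, a purine receptor of microglia, and -0.17 (SE 0.14) for Cx3cr1, the fractalkine receptor. Cx3cr1 alone held 2229 to 2781 CPM of the microglia marker sum in Cre-Cre, 2974 to 3067 CPM in Cre-pos and 2179 to 3448 CPM in WT libraries. For Cre-Cre against Cre-pos the 10 microglia markers had a median log2 fold change of -0.94, beside 0.01 over all genes. There 0 passed edgeR's test, beside 0.0214% of all genes. DESeq2 called 2 there, Sall1 and Tmem119, beside 0.899% of all genes. The markers of CNS-associated macrophages mostly ran the other way for Cre-Cre against WT, with 11 of 14 fitted above 0 and 3 below, beside 48.9% of all genes below. At an unadjusted p under 0.05 on the higher side there were 8 of 14, beside 4.56% of all genes. By edgeR 3 of the 14, among them Mrc1, which checks the genotype labels, passed, beside 0.0642% of all genes. Of these, Lyve1, a hyaluronan receptor, rose, with a log2 fold change of 0.85 (SE 0.10, adjusted p = 0.0215 by edgeR). Mrc1, whose locus names the allele, and Clec12a, a C-type lectin, fell. The part of either marker list in the Cd9 and Cd81 differences was not tested.

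**Figure D2:**
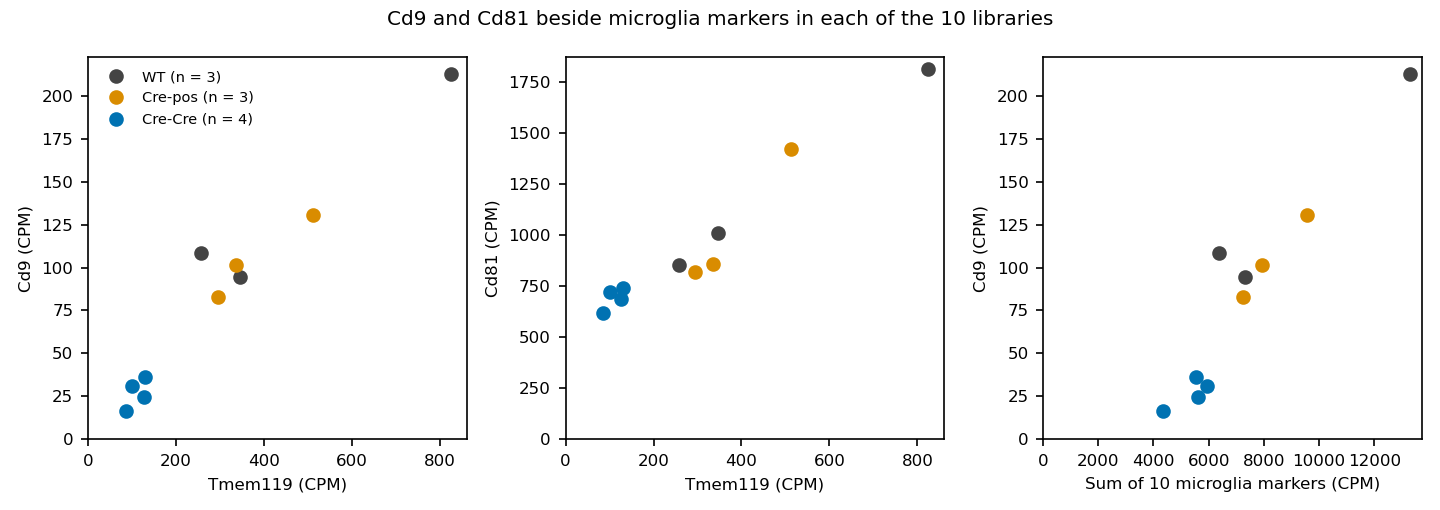
Cd9 and Cd81 in CPM (vertical axes) against Tmem119 and against the sum of 10 microglia markers in CPM (horizontal axes), a point per library coloured by genotype. The 4 Cre-Cre libraries sit at the lower left of each panel and WT replicate 3, at 213 CPM of Cd9 and 824 CPM of Tmem119, at the upper right.

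Marker sums of other cell types that carry tetraspanins also differed between genotypes in some cases. Monocyte markers summed to 6.24 to 17.6 CPM in Cre-Cre, 54.3 to 72.4 CPM in Cre-pos and 84.0 to 198 CPM in WT libraries, with Chil3 and F10 at 0 in all 10 libraries. The separation of the 3 genotypes rested on Ccr2, a chemokine receptor of monocytes, at 5.72 to 9.29 CPM in Cre-Cre, 35.1 to 57.9 CPM in Cre-pos and 68.0 to 161 CPM in WT libraries. Each other monocyte marker was at 34.7 CPM or less in every library and overlapped between WT and both other genotypes. Of these, only S100a4 was lower in Cre-Cre than in Cre-pos libraries without overlap, at 0.121 to 0.586 against 2.59 to 5.27 CPM. Platelet and megakaryocyte markers, of interest because platelets are rich in CD9 and CD151, summed to 3.53 to 11.6, 15.2 to 22.8 and 0.367 to 42.6 CPM in Cre-Cre, Cre-pos and WT libraries, with Gp1bb, Gp6 and Treml1 at 0. B cell markers, of interest for CD37, CD53 and CD81, summed to 272 to 437, 365 to 480 and 503 to 772 CPM in the same order, and were highest in WT without overlap. Oligodendrocyte markers, another cell type rich in CD9, summed to 140 to 278, 193 to 254 and 270 to 336 CPM. Their part in the tetraspanin values was not tested.

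By the closeness of its pattern over the 10 libraries, the 5 genes most like Cd9 on log2 CPM included Tgfbr1 (Pearson r 0.98), a receptor of TGF-beta, Tmem119 (0.96), Serpine2 (0.96), a secreted protease inhibitor, and Mrc1 (0.94). They were ranked among 8132 genes compared, the points share genotype, and no test was made. Spearman's rho for these was 0.94, 0.90, 0.89 and 0.87. Tgfbr1 was at 223 to 252 CPM in Cre-Cre, 359 to 431 CPM in Cre-pos and 368 to 507 CPM in WT libraries, so its Cre-Cre libraries also stood below all others. Among the members, r with Cd9 was 0.86 for Cd81, 0.65 for Cd53, 0.55 for Tspan4 and 0.47 for Cd37, and -0.22 for Cd82, -0.38 for Cd151 and -0.40 for Cd63. Spearman's rho in the same order was 0.95, 0.36, 0.65 and 0.50, and -0.20, -0.22 and -0.52. By rho Cd53 thus stood below Tspan4 and Cd37.

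Cd63, the tetraspanin of late endosomes, lysosomes and exosomes, did not follow Cd9. It was at 1437, 1521, 1579 and 1606 CPM in Cre-Cre replicates 1 to 4, 1565, 1531 and 1485 CPM in Cre-pos replicates 1, 2 and 4, and 1189, 1400 and 1403 CPM in WT replicates 1 to 3. All libraries with the allele lay above all WT libraries, a pattern held by 1.5% of all genes, and the Cre-Cre and Cre-pos values overlapped. The log2 fold change against WT was 0.21 (SE 0.08, adjusted p = 0.638) in Cre-Cre and 0.20 (SE 0.09, adjusted p = 0.791) in Cre-pos libraries by edgeR, and neither passed. Both comparisons share the WT libraries. Between Cre-Cre and Cre-pos it was 0.01 (SE 0.08), with a 95% interval of -0.17 to 0.19.

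Cd82, a surface tetraspanin known for restraining cell migration, had the same order of libraries as Cd63 with respect to WT. It was at 214, 223, 181 and 227 CPM in Cre-Cre replicates 1 to 4, 236, 189 and 261 CPM in Cre-pos replicates 1, 2 and 4, and 156, 166 and 180 CPM in WT replicates 1 to 3. The WT libraries were again the lowest, although Cre-Cre replicate 3 and WT replicate 3 were nearly equal. The log2 fold change against WT was 0.34 (SE 0.14, adjusted p = 0.653) in Cre-Cre and 0.45 (SE 0.15, adjusted p = 0.791) in Cre-pos libraries by edgeR. Neither passed, and Cre-Cre against Cre-pos gave -0.11 (SE 0.14).

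Cd53 and Cd37, the tetraspanins of leukocytes, overlapped between all genotypes. Cd53 was at 1235, 1436, 1442 and 1458 CPM in Cre-Cre replicates 1 to 4, 1443, 1508 and 1414 CPM in Cre-pos replicates 1, 2 and 4, and 1406, 1485 and 1537 CPM in WT replicates 1 to 3. Apart from Cre-Cre replicate 1, its libraries lay within 1406 to 1537 CPM. The log2 fold change was -0.08 (SE 0.08, 95% interval -0.26 to 0.09) for Cre-Cre against WT, the narrowest interval among the members in that comparison. Cd37 ranged from 96.2 to 193 CPM in Cre-Cre, 129 to 206 CPM in Cre-pos and 116 to 189 CPM in WT libraries. Its log2 fold change for Cre-Cre against WT was also -0.08, with a wider interval of -0.65 to 0.49.

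Tspan4, a tetraspanin of migrasomes, the vesicles left behind by migrating cells, and Cd151, a partner of laminin-binding integrins, were the least abundant members by CPM in WT libraries. Tspan4 was at 87.7, 84.2, 68.1 and 58.8 CPM in Cre-Cre replicates 1 to 4, 73.5, 83.7 and 96.9 CPM in Cre-pos replicates 1, 2 and 4, and 89.6, 93.7 and 93.4 CPM in WT replicates 1 to 3. Its Cre-Cre libraries lay below all WT libraries but overlapped the Cre-pos ones, and the log2 fold change against WT was -0.30 (SE 0.18, adjusted p = 0.806 by edgeR). Cd151 was at 30.6 to 39.8 CPM in Cre-Cre, 18.9 to 33.5 CPM in Cre-pos and 53.6, 45.6 and 12.3 CPM in WT replicates 1 to 3. WT replicate 3, the highest library for Cd9 and Cd81, was the lowest for Cd151. The log2 fold change of Cd151 for Cre-Cre against WT was -0.13 (SE 0.44), with the widest interval of the members in that comparison, -1.10 to 0.84.

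**Figure D3:**
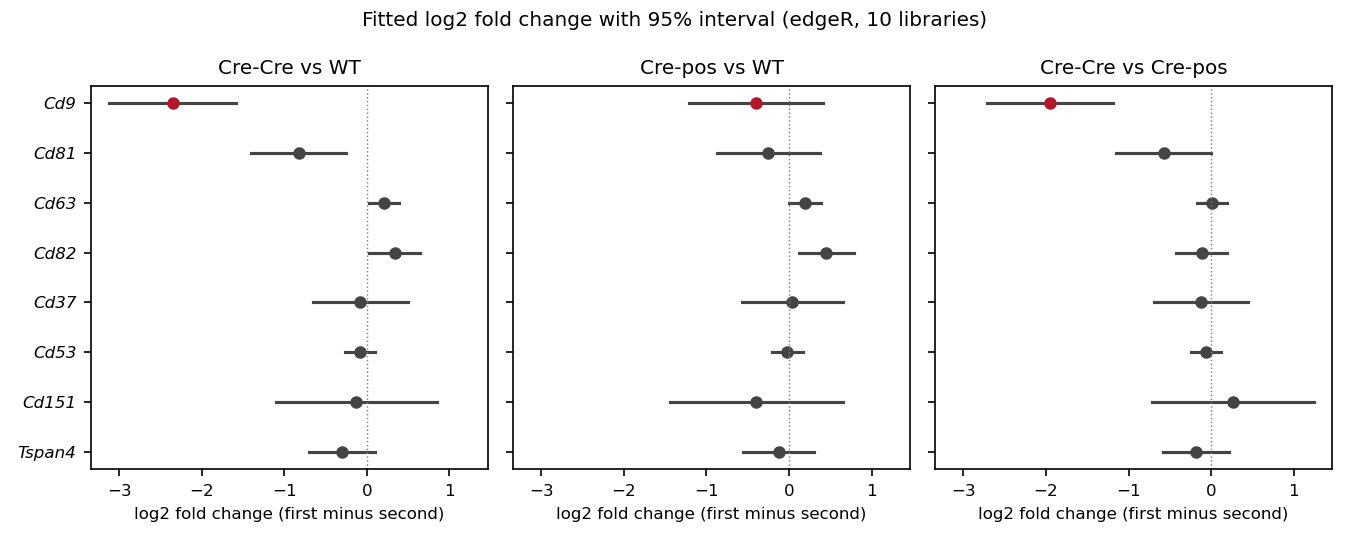
Fitted log2 fold change (horizontal axes, the genotype named first minus the second) of each member in the 3 comparisons, as points with 95% intervals from edgeR over 10 libraries, with Cd9 in red. The Cd9 intervals are a description and no test, since its Cre-Cre and Cre-pos libraries chose it. The Cd9 points stand at -2.35 and -1.95 in the comparisons with Cre-Cre, followed by Cd81 at -0.83 and -0.58, and the other 6 members lie between -0.39 and 0.45.

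Counted over the 7 relatives of Cd9, 0 passed edgeR's test for Cre-Cre against WT, where 0.0642% of all genes passed, and 0 for Cre-pos against WT, where 0% passed. At an unadjusted p under 0.05 there were 3 of 7 for Cre-Cre against WT (Cd81 lower, Cd63 and Cd82 higher), beside 7.52% of all genes (2.96% lower, 4.56% higher), and 2 of 7 for Cre-pos against WT (Cd63 and Cd82 higher), beside 5.82% of all genes (3.42% higher). DESeq2 called 1 of 7, Cd81, in the former and 0 in the latter, where it called 2.19% and 1.72% of genes. limma-voom called 0 of 7 in both, where it called 0.0713% and 0% of genes. Libraries did not overlap between Cre-Cre and WT for 4 of 7 (Cd81 and Tspan4 below, Cd63 and Cd82 above), beside 7.97% of all genes (3.57% below, 4.4% above), and between Cre-pos and WT for 2 of 7 (both above), beside 9.6% of all genes (5.43% above). Of the 7, 5 were fitted below 0 for Cre-Cre against WT, beside 48.9% of all genes. For Cre-Cre against Cre-pos, the contrast that chose Cd9, 0 of 7 passed by edgeR, DESeq2 or limma-voom, where 0.0214%, 0.899% and 0.0143% of genes did, and 0 had an unadjusted p under 0.05, beside 4.86% of all genes. The libraries of 1 of 7, Cd81, lay below in that contrast without overlap, beside 3.72% of all genes. The median log2 fold change of the 7 was -0.08 for Cre-Cre against WT, -0.02 for Cre-pos against WT and -0.11 for Cre-Cre against Cre-pos, beside 0.02, 0.01 and 0.01 over all genes.

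Scaled by gene length, Cd53 was the most abundant member in all 3 genotypes, at 847 ± 37.8 CPM per 1000 bases of merged exon (SD, n = 3) in WT, and its range met that of no other member. Cd81 at 426 ± 178 (SD, n = 3) and Cd63 at 361 ± 33.3 (SD, n = 3) followed on the same length-scaled level in WT and overlapped. Cd9 came next at 67.8 ± 31.6 (SD, n = 3), and its neighbours Cd82 (55.6), Cd37 (44.0) and Tspan4 (42.3) each overlapped the gene before them. Cd151 was lowest at 13.6 ± 8.00 (SD, n = 3). In Cre-Cre libraries Cd9 took seventh place, at 13.3 ± 4.28 (SD, n = 4), below Tspan4 at 34.3 without overlap and overlapping Cd151 at 12.4, and Cd63 at 417 stood above Cd81 at 240 without overlap. In Cre-pos libraries Cd82 (76.1), Cd9 (51.4), Cd37 (45.3) and Tspan4 (38.9) each overlapped the next.

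**Figure D4:**
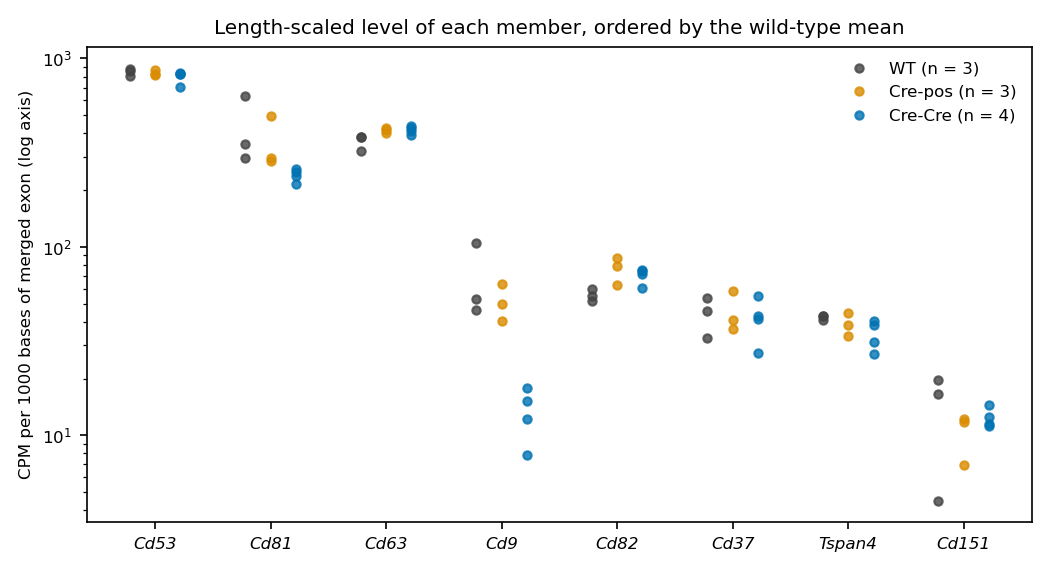
Length-scaled level of each member, CPM per 1000 bases of merged exon on a log axis, a point per library for WT (n = 3), Cre-pos (n = 3) and Cre-Cre (n = 4), with genes ordered by the WT mean. Cd53 lies above all other members, and the Cre-Cre points of Cd9, at 7.89 to 17.8, overlap those of Cd151.

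Of 23 further tetraspanins, 15 had enough counts to be tested, and 0 passed edgeR's test in any of the 3 comparisons. At an unadjusted p under 0.05 there were 2 for Cre-Cre against WT (Tspan32 and Tspan33, both lower), 1 for Cre-pos against WT (Tspan10, higher) and 1 for Cre-Cre against Cre-pos (Tspan33, lower). Over all genes the shares were 7.52%, 5.82% and 4.86% in these comparisons, so that 1 of 15 is near the background. DESeq2 called 1 of them, Tspan32, for Cre-Cre against WT, where it called 2.19% of genes, and 0 otherwise, and limma-voom called 0. Their median log2 fold change was -0.02 for Cre-Cre against WT, 0.14 for Cre-pos against WT and -0.04 for Cre-Cre against Cre-pos. The most abundant were Tspan14, Tspan31, Tspan3 and Tspan7, with log2 fold changes of 0.06, -0.06, 0.16 and -0.02 for Cre-Cre against WT. Tspan14 belongs to the tetraspanins that escort the sheddase ADAM10 to the cell surface, and its level was 339 to 408 CPM in Cre-Cre and 349 to 388 CPM in WT libraries. Tspan33, of the same ADAM10-binding group, and Tspan32, a tetraspanin of blood cells, were picked out, like Tspan10, after their values were seen. Tspan10 was at 0 CPM in every WT library and at 0 to 3.42 CPM in Cre-pos libraries, which overlapped. Tspan33 was at 6.79 to 18.8 CPM in Cre-Cre, 15.2 to 42.4 CPM in Cre-pos and 22.5 to 46.0 CPM in WT libraries, with a log2 fold change of -1.09 (SE 0.47, adjusted p = 0.654 by edgeR) for Cre-Cre against WT. Tspan32 was at 0 to 3.00 CPM in Cre-Cre, 4.28 to 7.38 CPM in Cre-pos and 6.43 to 24.3 CPM in WT libraries, with a log2 fold change of -3.65 (SE 1.27, adjusted p = 0.59 by edgeR and 0.0343 by DESeq2). Both had Cre-Cre libraries below all WT libraries, the only ones among the 15 to do so, beside 3.57% of all genes. The Cre-Cre libraries of Tspan32 also lay below all Cre-pos libraries, again the only such case among the 15. Tspan32 thus had all Cre-Cre libraries below all others, as did Cd9, Cd81 and 0.813% of all genes. Tspan33 overlapped between Cre-Cre and Cre-pos. For Cre-pos against WT, only Tspan18 did not overlap, with Cre-pos below, beside 9.6% of all genes in either direction.

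Tetraspanin partners were listed separately. Of 28 listed, 20 were tested, and 0 were called by edgeR, DESeq2 or limma-voom in any comparison. An unadjusted edgeR p under 0.05 was found for 1 when Cre-Cre was set against WT (Itgal, the leukocyte integrin alpha-L, higher), for 1 when Cre-pos was (Sdcbp, lower) and for 0 between Cre-Cre and Cre-pos. These counts are at or below the shares over all genes, 7.52%, 5.82% and 4.86%, and edgeR called only 0.0642%, 0% and 0.0214% of genes, so that 0 of 20 is no result about the partners. The 20 had a median log2 fold change of 0.04 for Cre-Cre against WT. On that scale the most abundant were Sdcbp, the syntenin adaptor of CD63 and exosome formation, at -0.18, Ifitm3, an antiviral membrane protein that associates with CD81, at -0.41, Vcam1, an adhesion molecule held in tetraspanin domains, at 0.19, and Itgb1, the integrin beta-1 subunit, at 0.04. Adam10, Igsf8 and Ptgfrn are named for their known ties to members, outside the rule of abundance and with values seen. Adam10 was at 217 to 275 CPM in Cre-Cre, 265 to 303 CPM in Cre-pos and 208 to 271 CPM in WT libraries, which overlapped. Its log2 fold change against WT was 0.09 (SE 0.13) in Cre-Cre and 0.30 (SE 0.14) in Cre-pos libraries. Igsf8, a direct partner of CD9 and CD81, was at 116 to 140 CPM in Cre-Cre, 112 to 148 CPM in Cre-pos and 81.6 to 162 CPM in WT libraries, which overlapped. Ptgfrn, the other direct partner, had too few counts to be tested.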

How the data were processed

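Whole-number read counts per gene symbol were deposited by the authors in 1 table with a column per library. Per the submitters' processing notes, bcl2fastq 2.20, STAR 2.7.8a and featureCounts 2.0.2 were used. Genome build, annotation and strand setting were not found in any source used here. The library kit does not keep strand, so reads of overlapping genes cannot be told apart.

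Of 22778 genes with a count, edgeR's filterByExpr on genotype kept 14023 (count at least 10, total at least 15). Libraries were scaled by trimmed-mean-of-M-values factors. edgeR 4.0.16 in R 4.3.3 fitted all 10 libraries by genotype with its robust quasi-likelihood test, and Benjamini-Hochberg adjustment ran over all genes tested, with a call at 0.05. Each SE came from the fold change and its F statistic. Lengths are merged exons of GENCODE vM21 and include rarely used exons. Likeness used log2 CPM (prior count 2) of genes with a mean of at least 10 CPM. The test was tried on simulated counts. Figures were drawn with matplotlib 3.10.9.

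The members and lists were chosen with earlier results of these data known. Named were all members, any called gene and the 4 most abundant of each list, the 5 genes most like Cd9 (1 of which is not reported here) and the 2 most like each other member. Alternatives were DESeq2 1.42.0, limma-voom (limma 3.58.1), edgeR with DESeq2's size factors, no filter or a stricter one, no robust estimation, the title letter or the replicate number in the fit, only the compared genotypes, and each library left out. Each library is an individual mouse.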

Additional observations from a re-analysis of the deposited data

Results flagged for a closer look

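Cd53 in Cre-Cre replicate 1 was at 1235 CPM and stood apart from the other 3 Cre-Cre libraries, at 1436 to 1458 CPM, by Dixon's test for a single outlying value. The 19 genes tested this way gave this 1 result, and chance gives about 1 in 20. The same library had the lowest Cre-Cre values of Cd9 (16.1 CPM), Cd81 (620 CPM), Cd63 (1437 CPM) and Cd37 (96.2 CPM).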

How the results depend on the processing

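No relative of Cd9 changed its call under any alternative except DESeq2, which called 1 relative, Cd81, for Cre-Cre against WT. Cd81 stayed lower in Cre-Cre than in WT in every alternative run. So did Cd9, but its low Cre-Cre libraries chose it and are reused in these runs. For Cd9 the steady sign is therefore a description and no support. Over all genes, edgeR called 9 for Cre-Cre against WT, while DESeq2 called 294, the fit with the title letter 17, the fit of only the compared genotypes 2, and fits without a library 2 to 12; for Cre-pos against WT the counts were 0 and 236 by DESeq2; for Cre-Cre against Cre-pos they were 3, 123 by DESeq2, and 1 without robust estimation, with the title letter or with only those genotypes, and 1 to 2 without a library. Among the genes named, signs of the log2 fold change turned as follows. For Cre-Cre against WT limma-voom gave 0.14 for Cd151 and 0.0034 for Tspan7. For Cre-pos against WT, Tspan14 was at -0.018 with DESeq2's size factors in edgeR, -0.018 by DESeq2, -0.011 with the title letter and -0.00059 with only those genotypes, and Tspan33 was at -0.0039, -0.0040 and, by limma-voom, -0.11. For Cre-Cre against Cre-pos, Cd63 was at -0.0040 with the title letter. The cause was not tested.

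Leaving out each library in turn also turned signs. For Cre-Cre against WT the ranges were -0.25 to 0.086 for Cd37, -0.54 to 0.24 for Cd151, -0.23 to 0.069 for Tspan31, -0.20 to 0.20 for Tspan7 and -0.13 to 0.21 for Itgb1. For Cre-pos against WT they were -0.56 to 0.15 for Cd81, -0.62 to 0.049 for Cd9, -0.19 to 0.21 for Cd37, -0.059 to 0.011 for Cd53, -0.094 to 0.15 for Tspan14, -0.15 to 0.038 for Tspan3, -0.10 to 0.35 for Tspan7, -0.12 to 0.13 for Vcam1 and -0.26 to 0.39 for Tspan33. For Cre-Cre against Cre-pos they were -0.28 to 0.11 for Cd37, -0.015 to 0.045 for Cd63, -0.23 to 0.00092 for Cd82, -0.086 to 0.16 for Tspan14, -0.28 to 0.089 for Tspan7 and -0.20 to 0.21 for Ifitm3. Each such library changes the number of samples as well as its own value.

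Libraries of different genotypes with the same replicate number had correlations of their deviations from the genotype means of -0.012 to 0.035. Those with different numbers ranged from -0.047 (Cre-Cre replicate 1 with Cre-pos replicate 4) to 0.048 (Cre-Cre replicate 3 with Cre-pos replicate 4). The 2 ranges overlapped, so these values cannot decide whether the number marks a shared block. With the replicate block in the fit, Cd9 was at -2.41 for Cre-Cre against WT and -2.05 for Cre-Cre against Cre-pos, Cd81 at -0.82 and -0.62, Cd63 at -0.014 for Cre-Cre against Cre-pos, and for Cre-pos against WT Cd37 was at -0.0045 and Tspan7 at -0.0062. The block left 1 gene called for Cre-Cre against WT and 1 for Cre-Cre against Cre-pos. Depth limits Tspan32, at 0 to 3.00 CPM in Cre-Cre libraries, and Tspan10, at 0 CPM in WT and 0 to 3.42 CPM in Cre-pos libraries.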

Other observations

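The genes whose levels followed each relative of Cd9 most closely over the 10 libraries differed between relatives. Pearson's r on log2 CPM is given as a description over libraries that share genotypes, with no test. Cd81 was followed by Selplg (0.95), the P-selectin ligand of leukocytes, and Itgb5 (0.93), an integrin beta subunit. Cd53 was followed by Havcr2 (0.96), the receptor TIM-3, and Itgav (0.95), the integrin alpha-V subunit. Cd63 was followed by Cyp2j6 (0.96) and Snx4 (0.96), a sorting nexin of endosomes, and Cd82 by Mtch1 (0.88) and Cul9 (0.87). Cd37 was followed by Lcmt2 (0.93) and Dennd1c (0.90), Cd151 by Tgfb1 (0.93), the cytokine TGF-beta-1, and Ankrd17 (0.91), and Tspan4 by Mphosph10 (0.92) and Mgst1 (0.91), a microsomal glutathione transferase. Spearman's rho was 0.65 for Tgfb1 and 0.73 for Mgst1, and 0.81 to 0.96 for the other genes in these pairs. Cyp2j6 was at 0 to 4.24 CPM in WT libraries and Havcr2 at 0 to 16.9 CPM in Cre-Cre libraries, near the floor.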
